A study of Mus musculus with 14 samples.

Results

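The 10 genes described here encode transcription factors and cofactors that set up or maintain B cell identity: Pax5, Ebf1, Ikzf1, Ikzf3, Spib, Tcf3, Foxo1, Bach2, Bcl6 and Pou2af1. Every non-control probe whose gene name in the array files was one of these was taken, which gave 16 probes among 55681 non-control probes under 34821 gene names. Of these 16, 15 were well above background on 4 or more arrays within one genotype and entered the test over 29689 probes. The single Bcl6 probe was too dim and is described by its values only.

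RNA came from peritoneal B-1a cells, a self-renewing B cell type that makes natural antibodies, of Bmi1 KO and WT mice. Bmi1 belongs to a Polycomb complex that silences developmental genes. Each sample was labelled with Cy3 and hybridised to its own mouse array. There were 7 arrays of Bmi1 KO and 7 of WT, in 2 sets of experiments, read here from the numbering style of the titles (3 arrays per genotype in set 1 and 4 in set 2). The labels give the genotype alone: strain, age, the deleted part of Bmi1 and the cells in which it is deleted are not stated, nor whether each sample is its own animal. The p-values therefore reflect the spread of these samples alone, part of which may be technical.

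As background, Tcf3 (which encodes the E proteins E12 and E47), Ebf1 and Foxo1 act early and together in specifying B cell progenitors, and Pax5 then commits them by activating B cell genes and repressing genes of other lineages. The zinc finger proteins Ikaros (Ikzf1) and Aiolos (Ikzf3), the ETS factor Spi-B (Spib) and the Oct coactivator OBF-1 (Pou2af1) act in mature B cells, where they tune signalling through the antigen receptor. Bach2 and Bcl6 are repressors that restrain differentiation into plasma cells.

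For Pax5, Ikzf1 and Bach2 the differences between Bmi1 KO and WT had opposite signs at probes of one gene, although none passed the test. The sequences of such probes, and of others compared below, are shown first, as the array files give them, with mm9 positions. Ikzf1 was read by 3 probes along the plus strand of chromosome 11. The most upstream lies at chr11:11661344-11661403 and targets transcript ENSMUST00000048122 at base 827, and its first 30 bases are shown. The middle one lies at chr11:11669493-11669552, at base 1726 of NM_001025597, and is shown whole; the capitals mark the codons for the paired cysteines and the first histidine of a C2H2 zinc finger, the type that Ikaros proteins use to bind DNA and one another. The third lies at chr11:11672828-11672887, at base 5061 of NM_001025597, and its first 30 bases are shown.
Ikzf1 base 827: cagaaatttcttggtaagagttaaatgttt
Ikzf1 base 1726: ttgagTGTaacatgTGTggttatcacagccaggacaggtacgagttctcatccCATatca
Ikzf1 base 5061: aggaagctcatgtgcatctggtgctatggc

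Bach2 was read at both ends of NM_001109661 on the plus strand of chromosome 4, by a probe at chr4:32588782-32588841 (base 343) and one at chr4:32673009-32673068 (base 8418). The downstream probe holds AATAAA, the commonest polyadenylation signal, as do the probes of Spib (chr7:51781392-51781451, minus strand, base 2699 of its transcript) and Pou2af1 (chr9:51048121-51048180, plus strand, base 2502). In the 30-base stretches shown, capitals mark AATAAA; the upstream Bach2 probe is shown by its first 30 bases.
Bach2 base 343: cttctggcaagcactggttggacagacgaa
Bach2 base 8418: agacgccatttctgttgatgaAATAAAggc
Spib base 2699: taaactgtactaAATAAAattatttctcat
Pou2af1 base 2502: tttgcaacattttcAATAAAgattggttag

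AATAAA was searched on the probe's own strand only. It occurred in 3 of the 16 probes and in 2831 of the 29689 tested probes (9.54%). The median KO minus WT difference was 0.57 over tested probes that hold it and 0.29 over those that do not, on the log2 scale. These values are descriptions of probe position, and nothing is drawn from them about processing of the transcripts.

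Pax5, on the minus strand of chromosome 4, was read by 2 probes within the coding part of NM_008782. The probe at base 751 lies within one exon, at chr4:44658421-44658480. The probe at base 1009 joins exons, since its 60 bases span chr4:44550354-44582908 in the genome. Both are shown whole because their differences between genotypes had opposite signs.
Pax5 base 751: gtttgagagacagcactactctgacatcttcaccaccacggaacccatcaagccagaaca
Pax5 base 1009: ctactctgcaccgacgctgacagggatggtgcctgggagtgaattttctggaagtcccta

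Array quality differed between the genotypes. Non-control spots well above background made up 20.6% to 56.6% (median 37.3%) on KO arrays and 43.7% to 63.1% (median 51.7%) on WT arrays. All 4 arrays under 40%, called dim from here on, were KO: set 1 replicate 4 and set 2 replicates 1, 2 and 3. On the log2 scale, the median SD of a tested probe was 1.89 in KO and 1.10 in WT. The B cell markers Cd79a, Cd79b, Ms4a1 and Cd22 were each well above background on every array. Of the B-1 markers Cd5, Spn, Bhlhe41, Plscr1 and Cd9, 1 to 5 were above background on KO arrays and 4 to 5 on WT arrays. Of the 7 T cell markers, 3 to 7 were above background on KO arrays and 4 to 7 on WT arrays. Summed linear signal, in multiples of an array's 75th percentile, was 9.55 to 211 (median 29.1) in KO and 32.5 to 77.7 (median 54.1) in WT for B-1 markers. For T cell markers it was 5.58 to 27.7 (median 8.40) in KO and 3.53 to 9.62 (median 5.86) in WT. The part of these cells in the results below was not tested. Neither Bmi1 probe was lower in KO: means were -0.25 in KO and -3.99 in WT for one (two-sided exact permutation within sets, p = 0.00286) and 1.79 in KO and 0.70 in WT for the other (p = 0.28). Which part of the gene was deleted is unknown, so these probes may check nothing.

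B lineage factor probes, like non-control spots as a whole, were detected less often on KO arrays. The median share of all spots well above background was 37.3% in KO and 51.7% in WT. Nothing particular to these genes is therefore read from the counts that follow. Between 6 and 16 of the 16 probes were well above background on KO arrays, with a median of 12 and a mean of 12 ± 3.32 (SD, n = 7). On WT arrays it was 14 to 16, with a median of 15 and a mean of 14.9 ± 0.90 (SD, n = 7; two-sided exact permutation within sets, p = 0.0386). The 4 dim KO arrays, with 6 to 13 probes, lay below every WT array. So did KO set 1 replicate 2, with 12 probes, although 56.6% of its spots were above background.

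**Figure D1:**
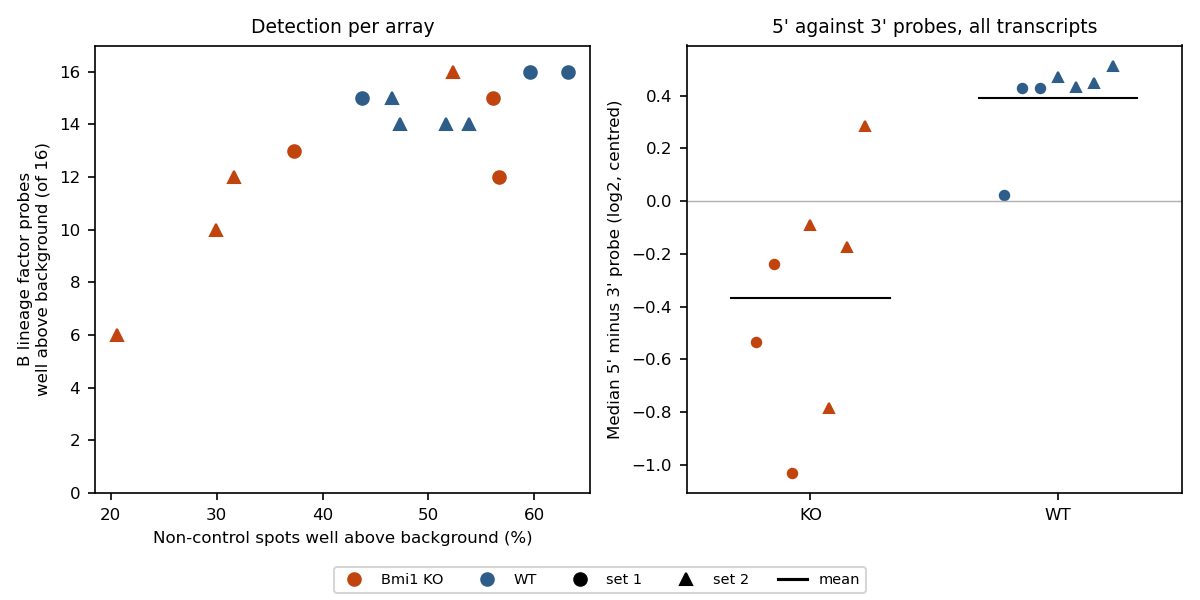
Left, each point is an array: the x axis is the percent of non-control spots well above background and the y axis the number of the 16 B lineage factor probes well above background; KO arrays reach down to 6 and WT arrays lie at 14 to 16. Right, the median over 1793 transcripts of the 5′ minus the 3′ probe on each array (log2, each transcript centred on its mean over arrays; bars are means), lower on average in KO than in WT.

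Across the 15 tested probes, the KO minus WT difference in level had a median of -0.27, against 0.32 over all tested probes. Levels here are log2 processed signal minus the array's 75th percentile. At an adjusted p under 0.05 limma called 0 of the 15, where it called 9 of 29689 probes (0.0303%; 1 higher and 8 lower). The smallest adjusted p among the 15 was 0.256. At an unadjusted p under 0.05, 2 of 15 were higher in KO (Ikzf1 base 827 and Pou2af1), beside 8.18% of all tested probes, and 2 were lower (Ikzf1 base 1726 and Bach2 base 343), beside 5.38%. Bach2 base 343 entered the test through WT arrays alone, so its place in this count is partly set by the filter. On no probe were the KO arrays all above or all below the WT arrays. The share of all tested probes without overlap is not given, so this describes these probes alone. Standard errors ran from 0.64 to 1.67.

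**Figure D2:**
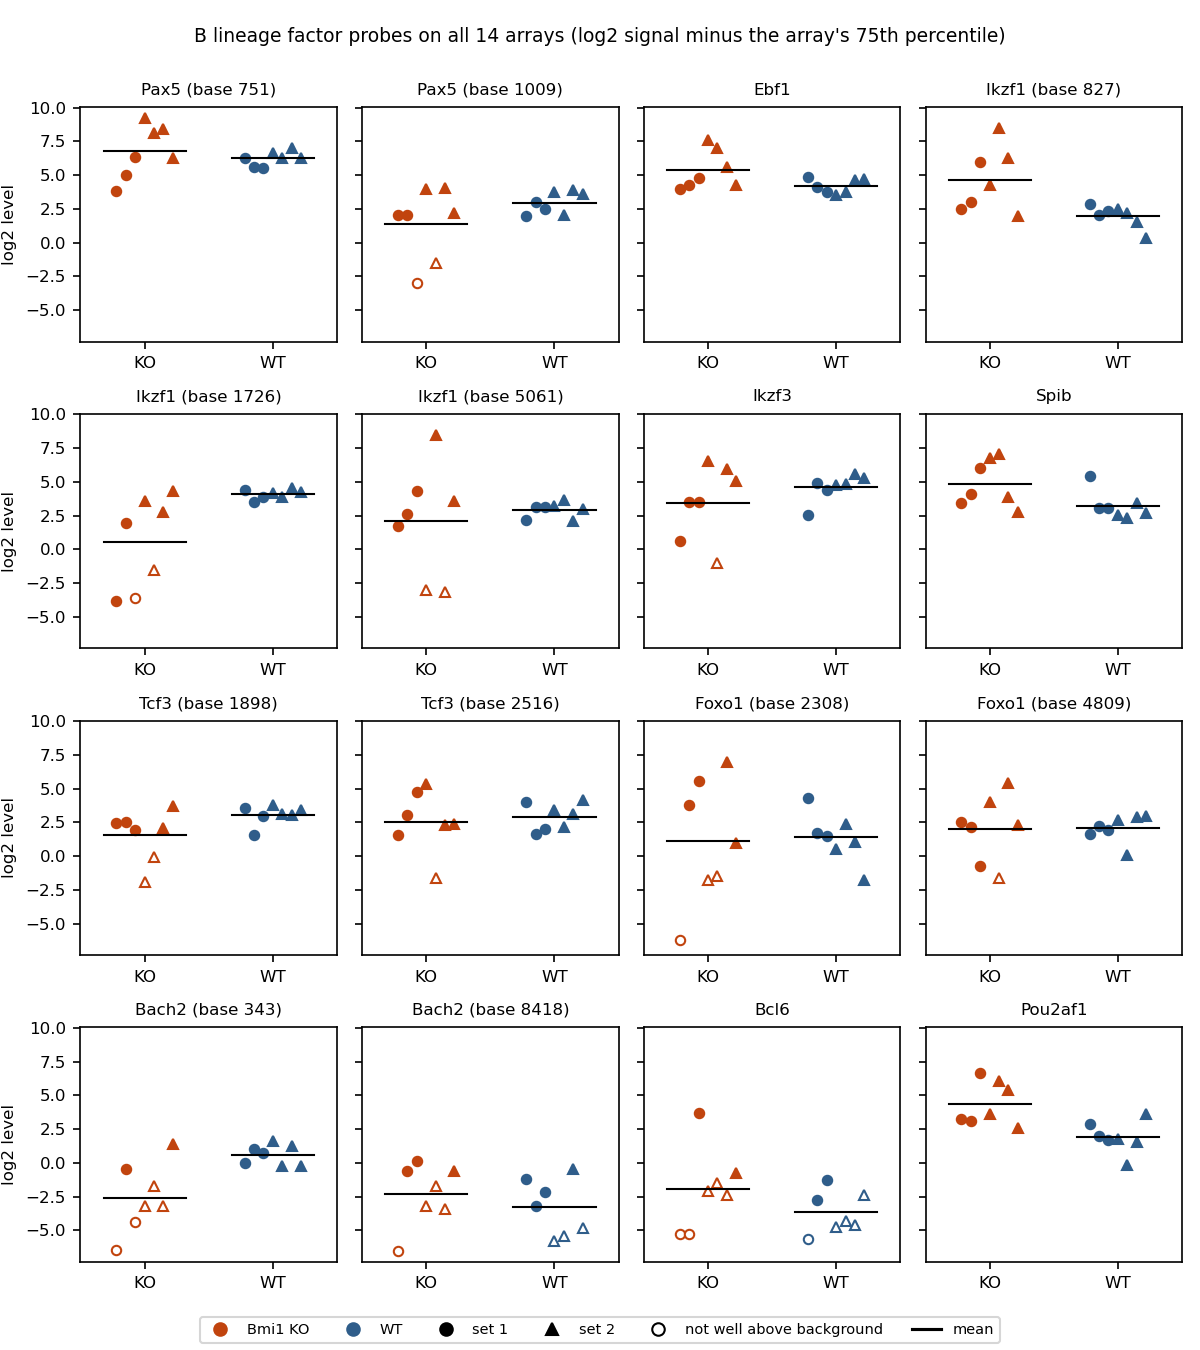
Log2 level of each of the 16 probes (y axis, log2 signal minus the array's 75th percentile) on the KO arrays (left) and the WT arrays (right); circles are set 1, triangles set 2, hollow symbols are not well above background and bars are means. WT arrays lie close together for most probes, while KO arrays spread widely and hold most of the hollow symbols of the tested probes, and no probe separates the genotypes on every array.

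The direction of a probe followed how it was detected. The 5 probes well above background on all 14 arrays (Pax5 base 751, Ebf1, Ikzf1 base 827, Spib and Pou2af1) had differences of 0.53 to 2.66, all positive. The median over all 7080 tested probes with that detection was 1.07, with quartiles of 0.67 and 1.45. The 9 probes well above background on fewer than 7 KO arrays and on 7 WT arrays had differences of -3.56 to -0.04, and the median over all 9356 probes of that kind was -0.38. Detection is read from the same signal, so these values describe the probes and test nothing. Against probes detected on all arrays, Pax5 base 751 lay below the lower quartile, Ebf1 lay between the quartiles, and Spib, Ikzf1 base 827 and Pou2af1 lay above the upper quartile.

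**Figure D3:**
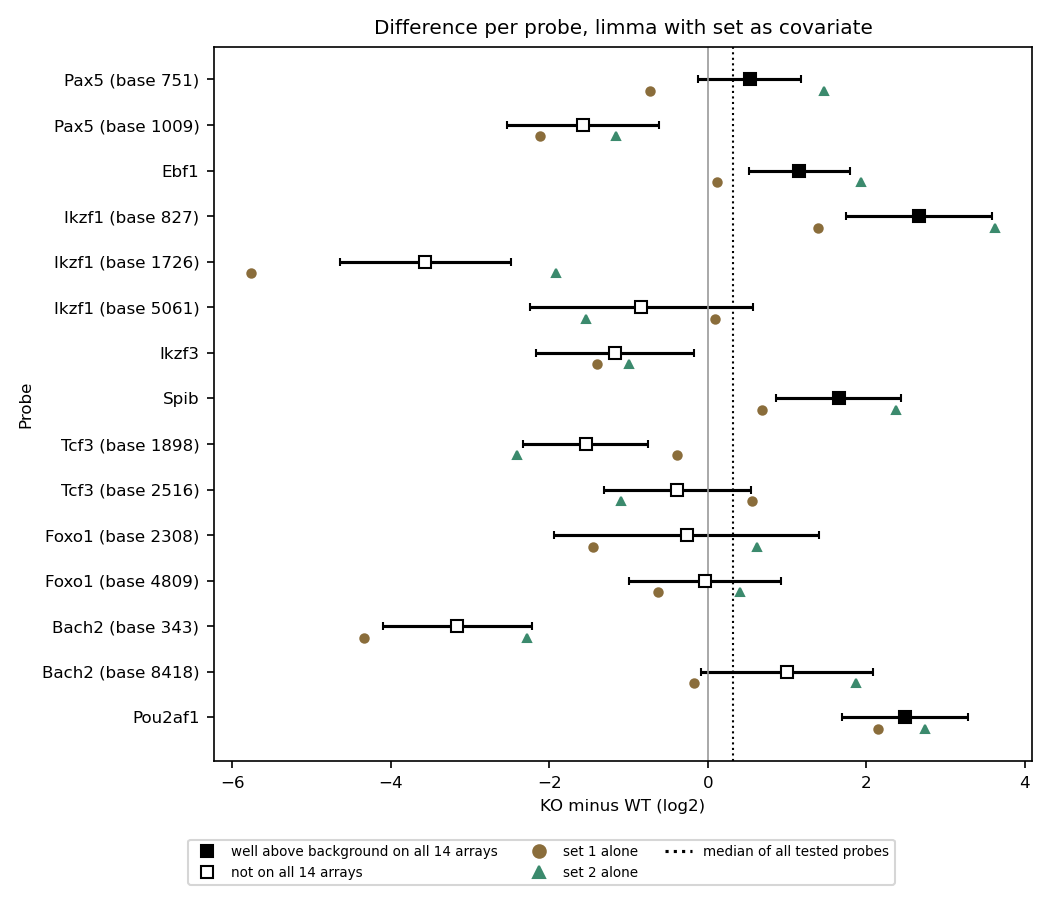
KO minus WT difference in log2 level for each of the 15 tested probes (squares, with the standard error from limma), filled where the probe was well above background on all 14 arrays, with the differences within set 1 (circles) and set 2 (triangles) below each. The filled squares lie between 0.53 and 2.66, and all open squares but Bach2 base 8418 lie below 0; the dotted line is the median of all tested probes, 0.32.

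Among the factors that specify the lineage, Ebf1 was detected on every array. Its probe (chr11:44818438-44818497, base 2008 of its transcript) read 4.00, 4.25 and 4.81 in KO set 1 and 7.63, 6.98, 5.60 and 4.26 in KO set 2. In WT it read 4.84, 4.13 and 3.74 in set 1 and 3.55, 3.77, 4.67 and 4.74 in set 2. The dim arrays KO set 2 replicates 1, 2 and 3 were above all WT arrays and the other KO arrays lay within the WT range. The difference was 1.15 (SE 0.64, limma adjusted p = 0.394), or 0.83 relative to the median of all probes. That relative value was 0.08 without the 4 dim KO arrays and turned to -0.02 with quantile normalization.

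Tcf3 was read by 2 probes on the minus strand of chromosome 10, at chr10:79875963-79876022 (base 1898 of NM_001164153, coding) and chr10:79872639-79872698 (base 2516 of NM_011548). The coding probe read 2.48, 2.53 and 1.94 in KO set 1 and -1.93, -0.07, 2.05 and 3.70 in KO set 2, and on WT arrays 3.58, 1.53 and 2.99 in set 1 and 3.78, 3.12, 3.08 and 3.39 in set 2. Both KO readings below the WT range, -1.93 and -0.07, were not well above background. Its difference was -1.54 (SE 0.79, adjusted p = 0.379), and relative to all probes it was -1.86 on all arrays and 0.14 without the 4 dim KO arrays. The other probe averaged 2.54 ± 2.30 in KO and 2.92 ± 0.99 in WT (SD, n = 7 each), a difference of -0.38 (SE 0.92, adjusted p = 0.856). Relative to all probes it was -0.70, and 0.15 with array weights.

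Foxo1, the forkhead factor that antigen receptor signalling through PI3K excludes from the nucleus, was read by a coding probe at chr3:52150183-52150242 (base 2308) and a second at chr3:52153289-52153348 (base 4809). The coding probe had the widest spread of all 16, from -6.25 to 7.01 with a median of 0.96 in KO and from -1.79 to 4.27 with a median of 1.48 in WT. In KO, 3 readings were not well above background, while KO set 2 replicate 3 and KO set 1 replicate 4 lay above all WT arrays. Differences were -0.27 (SE 1.67, adjusted p = 0.949) and -0.04 (SE 0.96, adjusted p = 0.988), and relative to all probes -0.59 and -0.36. Each of these turned positive under some settings: the first was 0.20 with normexp background correction and the second 0.41 without the 4 dim KO arrays.

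For Pax5, the commitment factor, the differences at its 2 probes had opposite signs, and neither passed the test. Base 751 read 3.85, 5.02 and 6.37 in KO set 1 and 9.26, 8.15, 8.39 and 6.29 in KO set 2, and on WT arrays 6.30, 5.60 and 5.55 in set 1 and 6.66, 6.30, 6.99 and 6.26 in set 2. In KO, 3 arrays lay above all WT arrays and 2 below. Its difference was 0.53 (SE 0.65, adjusted p = 0.702), with -0.73 in set 1 and 1.47 in set 2. Relative to all probes it was 0.21, and it turned to -0.63 with quantile normalization, to -0.33 with normexp and to -0.82 without the 4 dim KO arrays. Base 1009 read 2.07, 2.04 and -3.02 in KO set 1 and 3.94, -1.55, 4.03 and 2.21 in KO set 2, and on WT arrays 1.94, 3.04 and 2.46 in set 1 and 3.74, 2.01, 3.89 and 3.62 in set 2. Both readings below all WT arrays, -3.02 and -1.55, were not well above background. This difference was -1.57 (SE 0.96, adjusted p = 0.426), or -1.89 relative to all probes and -0.58 without the 4 dim KO arrays.

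Ikzf1, which encodes Ikaros, showed the widest gap between probes of one gene. Base 827 read 2.46, 2.99 and 5.96 in KO set 1 and 4.29, 8.47, 6.29 and 1.99 in KO set 2, and on WT arrays 2.87, 2.03 and 2.35 in set 1 and 2.52, 2.19, 1.53 and 0.33 in set 2. In KO, 5 arrays lay above all WT arrays, and the groups overlapped. The difference was 2.66 (SE 0.92, unadjusted p = 0.0105, adjusted p = 0.309; two-sided exact permutation within sets, p = 0.0171). Relative to all probes it was 2.35 on all arrays, and 0.44 without the 4 dim KO arrays, which hold the 4 highest readings.

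At base 1726 of Ikzf1, within a zinc finger, the difference had the opposite sign and did not pass the test either. It read -3.81, 1.93 and -3.61 in KO set 1 and 3.58, -1.54, 2.80 and 4.33 in KO set 2, and on WT arrays 4.43, 3.52 and 3.85 in set 1 and 4.18, 3.87, 4.52 and 4.27 in set 2. In KO, 5 arrays lay below all WT arrays, 2 of them not well above background, while the 7 WT arrays stayed within a narrow range. The difference was -3.56 (SE 1.08, unadjusted p = 0.0043, adjusted p = 0.263; exact permutation test, p = 0.00571). Relative to all probes it was -3.88, and -2.76 without the 4 dim KO arrays. The difference within each set was -5.76 (SE 1.53) in set 1 and -1.92 (SE 1.33) in set 2, and the dependence on set was 3.84 (SE 2.02, adjusted p = 0.876).

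Base 5061 of Ikzf1 read 1.75, 2.63 and 4.32 in KO set 1 and -3.03, 8.45, -3.19 and 3.57 in KO set 2, and between 2.09 and 3.63 with a median of 3.12 in WT. KO arrays lay on both sides of the WT range. The difference was -0.84 (SE 1.41, adjusted p = 0.788), or -1.16 relative to all probes and -0.02 without the 4 dim KO arrays. Reading the gene by its probe of highest mean level would have kept base 827 alone, the one probe of 3 that was higher in KO.

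Ikzf3, which encodes Aiolos, the partner of Ikaros in later B cells, was read by 1 probe at chr11:98326176-98326235 on the minus strand (base 3869). It read 0.59, 3.50 and 3.54 in KO set 1 and 6.57, -1.0, 5.99 and 5.04 in KO set 2, and on WT arrays 2.55, 4.91 and 4.36 in set 1 and 4.81, 4.87, 5.60 and 5.29 in set 2. KO arrays lay on both sides of the WT range, and the lowest KO reading was not well above background. The difference was -1.17 (SE 1.0, adjusted p = 0.565), and -1.49 relative to all probes.

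Spib and Pou2af1, regulators that act with ETS and Oct factors on B cell genes, were detected on every array. Spib read 3.43, 4.13 and 6.01 in KO set 1 and 6.81, 7.09, 3.86 and 2.77 in KO set 2, and on WT arrays 5.41, 3.06 and 3.03 in set 1 and 2.57, 2.33, 3.46 and 2.68 in set 2. Of the dim KO arrays, 3 lay above all WT arrays and the others overlapped with WT. The difference was 1.65 (SE 0.79, adjusted p = 0.37), or 1.33 relative to all probes, and 0.08 without the 4 dim KO arrays.

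Pou2af1 read 3.21, 3.07 and 6.66 in KO set 1 and 3.65, 6.10, 5.40 and 2.58 in KO set 2, and on WT arrays 2.86, 1.99 and 1.66 in set 1 and 1.80, -0.19, 1.52 and 3.64 in set 2. The 4 dim KO arrays lay above all WT arrays, and the other 3 lay within the WT range. The difference was 2.49 (SE 0.79, unadjusted p = 0.0061, adjusted p = 0.292; exact permutation test, p = 0.00571), with 2.14 in set 1 and 2.74 in set 2. Relative to all probes it was 2.17, and 1.05 without the 4 dim KO arrays. Pou2af1 and Ikzf1 base 827 were the only tested probes of these genes higher in KO at an unadjusted p under 0.05.

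Of the repressors, Bach2 too had differences of opposite sign at its 2 probes, neither past the test. Base 343 read -6.45, -0.47 and -4.38 in KO set 1 and -3.18, -1.71, -3.23 and 1.38 in KO set 2, and on WT arrays -0.05, 1.04 and 0.71 in set 1 and 1.59, -0.24, 1.23 and -0.22 in set 2. In KO, 6 arrays lay below all WT arrays, and 5 of the 7 KO readings were not well above background, so their order is not informative. This probe passed the filter through WT alone, being well above background on 2 KO and 7 WT arrays. Its lower level in KO is thus partly set by the filter, and its p-values are descriptions and no support. The difference at base 343 was -3.16 (SE 0.94, unadjusted p = 0.0039, adjusted p = 0.256; exact permutation test, p = 0.0157). Relative to all probes it was -3.48, -1.99 without the 4 dim KO arrays and -1.44 with normexp. Base 8418 was well above background in KO on 3 arrays and in WT on 4, with -6.56 to 0.15 (median -1.73) in KO and -5.80 to -0.45 (median -3.20) in WT. Its difference was 1.0 (SE 1.08, adjusted p = 0.66), or 0.68 relative to all probes.

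Bcl6, a repressor required for the germinal centre programme, was well above background in KO on 2 arrays and in WT on 2 (chr16:23965160-23965219, minus strand). The array set 1 replicate 4 gave the highest reading in each genotype, 3.68 in KO and -1.30 in WT. Most other readings sat at background, where the scaled value follows the brightness of the array. Means were -1.95 ± 3.04 in KO and -3.68 ± 1.54 in WT (SD, n = 7 each; two-sided exact permutation within sets, p = 0.237).

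The gap between probes of one gene was then measured within each array, where the scaling of the array cancels. The level of the upstream probe minus that of the downstream probe was compared between genotypes with limma for all 16243 pairs of tested probes that share a gene name, chromosome and strand, 7 of them from 5 of these genes. Of all pairs, 2 passed an adjusted p under 0.05 (0.0123%), and 0 of these 7. At an unadjusted p under 0.05, 3 of the 7 differed, beside 10.9% of all pairs. Pairs of Ikzf1 share probes and so are not separate. The measure was added after the data were seen and subtracts readings already given above. Its p-values for these genes are therefore descriptions and no separate support.

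Ikzf1 base 827 minus base 1726 was -2.34 to 10.01 (median 3.49) in KO and -3.94 to -1.49 (median -1.67) in WT. On 6 of 7 KO arrays it was above all WT arrays, and the exception was KO set 2 replicate 4, at -2.34. KO minus WT was 6.23 (SE 1.67, unadjusted p = 0.00247, adjusted p = 0.238; two-sided exact permutation within sets, p = 0.00429), with 7.15 in set 1 and 5.54 in set 2. Without the 4 dim KO arrays it was 3.20. On the 5 KO arrays with both probes well above background it was -2.34 to 6.27, and 4 of these lay above all 7 WT arrays. From a difference within an array, a change of one probe alone cannot be told from a change of both.

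Ikzf1 base 827 minus base 5061 differed by 3.50 (SE 1.54, adjusted p = 0.436) and was 0.47 without the 4 dim KO arrays. Base 1726 minus base 5061 differed by -2.73 (SE 2.27, adjusted p = 0.686), and KO arrays spread from -9.99 to 6.61 where WT arrays ran from 0.23 to 2.43. Bach2 base 343 minus base 8418 was -4.53 to 1.99 (median 0.11) in KO and 1.15 to 7.40 (median 4.24) in WT. Its difference was -4.15 (SE 0.96, unadjusted p = 0.00077, adjusted p = 0.206; exact permutation test, p = 0.00286), with -4.17 in set 1 and -4.15 in set 2. Both Bach2 probes were well above background on only 2 KO arrays, at 0.16 and 1.99, and on 4 WT arrays, at 1.15 to 4.24, so on most arrays this pair sets a reading at background against another. The pairs of Pax5, Tcf3 and Foxo1 differed by 2.10 (SE 1.16), -1.16 (SE 1.19) and -0.23 (SE 2.01), with adjusted p of 0.529 to 0.979. Without the 4 dim KO arrays those of Pax5 and Tcf3 changed sign, to -0.23 and 0.52.

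**Figure D4:**
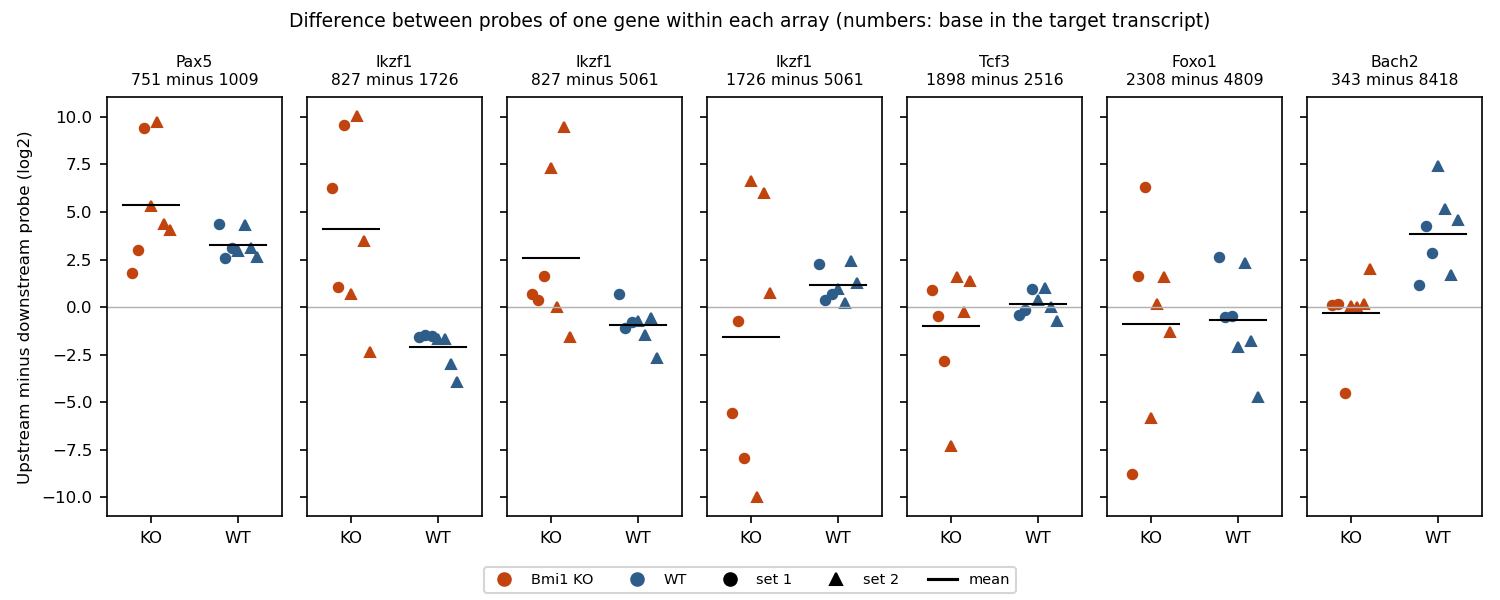
Level of the upstream minus the downstream probe of one gene on each array (y axis, log2), KO left and WT right, for the 7 pairs; numbers are bases in the target transcript, circles are set 1, triangles set 2 and bars are means. For Ikzf1 827 minus 1726, 6 of 7 KO arrays lie above all WT arrays, and for Bach2 6 of 7 KO arrays lie below all WT arrays.

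The position of a probe in its transcript also moved with genotype over all genes. Over 1793 transcripts read by 2 tested probes at least 500 bases apart, the median 5′ minus 3′ difference per array, centred per transcript, was -0.37 ± 0.45 in KO and 0.39 ± 0.17 in WT (SD, n = 7 each; two-sided exact permutation within sets, p = 0.00143, the smallest that 1400 arrangements can give). The KO minus WT difference of the 5′ probe lay below that of the 3′ probe in 69.5% of transcripts, with a median gap of -0.78. Over the 118 transcripts with both probes above background on all arrays the index was -0.33 ± 0.55 in KO and 0.25 ± 0.18 in WT (SD, n = 7 each; exact permutation test, p = 0.00286). Of the genes, 3 are among these transcripts, and their gaps were -4.15 for Bach2, -2.73 for Ikzf1 (base 1726 against 5061) and -0.23 for Foxo1. A gap of larger size was found in 2.51%, 14.6% and 90.1% of the transcripts. The part of RNA quality or of labelling from the 3′ end in the differences of single probes was not tested. Ikzf1 base 827 has another target transcript than the other Ikzf1 probes and is not among these pairs.

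The 2 sets were compared over the 15 probes. The dependence of the difference on set had an unadjusted p under 0.05 for 0 of 15, beside 5.37% of all tested probes. The difference, not taken relative to all probes, had the same sign in both sets for 9 of 15. The share of all tested probes with the same sign is not given, so this count describes these probes alone. Those with the same sign were Pax5 base 1009, Ebf1, Ikzf1 bases 827 and 1726, Ikzf3, Spib, Tcf3 base 1898, Bach2 base 343 and Pou2af1. The median over all tested probes was -0.04 in set 1 and 0.71 in set 2.

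Partners and targets of these factors were read by 1 probe per gene, the one with the highest mean level, and the median difference over 20415 genes was 0.47. Over those genes 5 passed an adjusted p under 0.05 (0.0245%), and 9.19% were higher and 4.14% lower in KO at an unadjusted p under 0.05. None of the 10 lists held a gene with an adjusted p under 0.05 in limma, so the counts that follow are at the unadjusted threshold. Of 25 tested genes that Pax5, Ebf1 and the Tcf3 proteins are known to activate, 4 were higher and 0 lower, with a median of 0.93. They included Blnk (the adaptor below the antigen receptor, 2.21), Cd72 (an inhibitory receptor, 2.83) and Btk. The 2 tested Btk probes had -0.07 and 1.78. Of 15 genes that Pax5 represses, 0 were higher and 0 lower (median 0.69).

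Of 11 Foxo1 targets, 2 were higher, among them Ccr7 (a homing receptor, 3.16), and 1 was lower, with a median of 1.02. Of the 4 markers of B-2 cells, the conventional B cells, 2 to 4 were well above background on KO arrays and 3 to 4 on WT arrays, and the part of B-2 cells was not tested. In such bulk samples, fewer cells of a type and less RNA per cell cannot be told apart. Of 13 genes that Bach2 and Bcl6 repress, 1 was higher, the adhesion receptor Cd44 (1.94), with a median of 0.42. The 4 tested Cd44 probes ran from -0.52 to 1.94. Of 9 plasma cell genes, 1 was lower, Edem1 (a factor of protein quality control, -1.45), and Prdm1, which encodes Blimp-1, had 0.82 (adjusted p = 0.498).

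Of 8 tested ETS, Oct and IRF partners, 1 was higher, Fli1 (1.59), with a median of 0.91. The other E proteins Tcf4 and Tcf12 had 0.61 and -2.58 (adjusted p = 0.733 and 0.311), and Ikzf4 (Eos) and Ikzf5 (Pegasus) had -3.08 and -0.85 (adjusted p = 0.231 and 0.653). A second tested probe had -1.83 for Tcf4, -0.18 for Tcf12 and 0.25 for Ikzf5. Of 18 other B cell regulators, Bcl11a was higher (1.45) and Foxo3 (-2.06) and Bhlhe41 (a regulator of B-1a cells, -4.61) were lower. Foxo3 was well above background on 2 KO and 6 WT arrays. It passed the filter through WT alone, which partly sets its place in this count. Over all tested probes of each gene, differences ran from -1.03 to 1.45 for Bcl11a, -2.06 to -0.13 for Foxo3 and -4.61 to -3.68 for Bhlhe41. Bhlhe41 averaged -0.23 ± 3.24 in KO and 4.38 ± 0.40 in WT (SD, n = 7 each), was well above background in KO on 4 arrays and in WT on all 7, and had an adjusted p of 0.182. Of 9 tested regulators of other lineages 1 was higher, the dendritic cell factor Zbtb46 (2.63). The counts are small, and nothing particular to a list is read from them.

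Genes whose pattern over the 14 arrays was most like that of a factor were sought among 11092 genes with a probe above background on at least 12 arrays, and r is given as a description of arrays that share scaling and brightness. For Ebf1 it was highest, among those with a gene symbol, for Camk2d (Pearson r = 0.965). For Spib it was Ggct (0.959), for Pou2af1 Anapc5 (0.947) and for Ikzf3 Klf3 (0.937). H1foo (0.958) and Krtap4-8 (0.953) followed Ikzf1 base 827. Tcf3 base 2516 was followed by BC006028 (0.918) and Fbxw2 (0.917), and Foxo1 base 4809 by Wdhd1 (0.906). For Pax5 base 751 both closest probes carry no gene symbol.

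Values relative to the median of all probes were compared over other settings. A scaling that shifts all probes alike, the fit without set and the replicate block move these values by at most 0.00023, by construction, and so test nothing about them. Under the 7 other settings and 14 runs without 1 array, the sign relative to all probes was the same throughout for 9 of the 15 probes: Pax5 base 1009, all 3 of Ikzf1, Ikzf3, Spib, both of Bach2 and Pou2af1. The relative differences nearest to 0 were -2.76 for Ikzf1 base 1726, -1.44 for Bach2 base 343, 1.05 for Pou2af1, -0.58 for Pax5 base 1009, -0.46 for Ikzf3 and 0.44 for Ikzf1 base 827. For Spib, Bach2 base 8418 and Ikzf1 base 5061 they were 0.08, 0.06 and -0.02, close to 0.

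**Figure D5:**
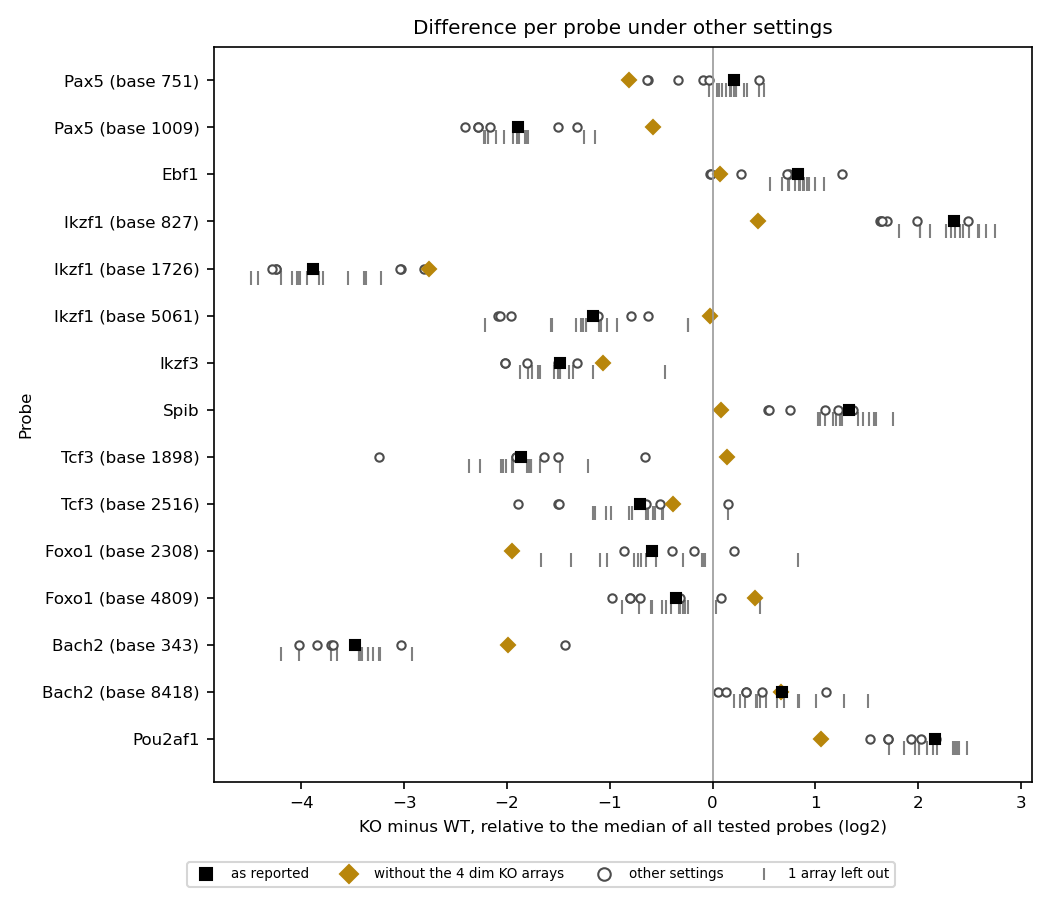
KO minus WT difference relative to the median of all tested probes (x axis, log2) for each of the 15 probes as reported (squares), without the 4 dim KO arrays (diamonds), under other settings (open circles) and with 1 array left out (ticks). Ikzf1 base 1726 and Bach2 base 343 stay below 0 and Pou2af1 above it throughout, while Ebf1, Pax5 base 751, Tcf3 and Foxo1 cross 0 in at least 1 setting.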

How the data were processed

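Scanner output of 14 one-colour arrays was used. Agilent Feature Extraction 10.7.3.1 gave the intensity of each spot, per the file headers, and probe positions are those of build mm9. Marks in the deposited files (a score of 0 or 1) tell which spots stood well above background or were outliers, and 0 spots were saturated. The deposited series matrix of processed log2 values, with a median of 3.952 in each of 14 columns, followed the quantile-normalized scanner values of its arrays (r at least 0.9993), so it is uncentred by gene and runs in the same direction; the sources used here do not name the tool that made it. It served as an alternative.

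The processed intensity was put on the log2 scale and the 75th percentile of an array's non-control spots subtracted, with outlier spots left out and spots of a probe averaged. Probes well above background on 4 or more arrays within one genotype were tested with limma 3.58.1 (R 4.3.3), two-sided, with set as covariate and Benjamini-Hochberg adjustment over all 29689 probes. The same fit was run on within-array differences of 16243 probe pairs of one gene. For single values, genotype was permuted exactly within each set, over 1400 arrangements. Slide coincided with scan. Set 1 lay on slide 1, and set 2 on slide 2 (both genotypes) and slide 3 (WT only). The number of arrays limits the precision. Figures used Python 3.11.15, numpy 2.4.6, pandas 2.3.3 and matplotlib 3.10.9.

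The members, lists and tests were chosen with earlier results of these data known. Every probe of the members is named, up to 3 genes of a list by smallest p (Btk, Prdm1, Tcf4 and Ikzf5 were added for completeness of a count or for their role), and up to 2 genes most like a factor; some genes of the lists are not reported here. Alternatives were other scalings, background correction, filters, covariates, array weights, 1 probe per gene and leaving out arrays. The probe pairs, the 5′ against 3′ measure and the fit within slide 2 were added after the data were seen. Gene symbols come from the array files and may be outdated.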

Additional observations from a re-analysis of the deposited data

Results flagged for a closer look

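Among the 32 groups of 7 arrays (16 probes, each in KO and WT), 3 held an array that stood apart from the other 6 by a Dixon test at the 95% level, which chance does in about 5 of 100 groups. All 3 were WT arrays of set 1. Ikzf3 read 2.55 on WT set 1 replicate 2, against 4.36 to 5.60 on the other WT arrays. Spib read 5.41 on the same array, against 2.33 to 3.46 on the others. The coding Tcf3 probe, at base 1898, read 1.53 on WT set 1 replicate 3, against 2.99 to 3.78 on the others. WT set 1 replicate 2 had the lowest share of spots well above background among WT arrays, at 43.7%. Without it, the difference of Spib relative to all probes was 1.76 and that of Ikzf3 was -1.69, and Tcf3 base 1898 had -2.26 without replicate 3. The limma adjusted p stayed above 0.05 in each.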

How the results depend on the processing

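Of the B lineage factor probes, 0 passed an adjusted p under 0.05 in limma under each alternative and each of the 14 runs without 1 array. The count over all probes, 9 (1 higher and 8 lower), was 131 (1 higher and 130 lower) when arrays were scaled on the probes detected on each of them, 26 (1 higher and 25 lower) with quantile normalization and with the deposited values, 1 over probes above background on all arrays, 5 without the 4 dim KO arrays and 5 with 1 probe per gene. Without 1 array it was 5 to 65, with 65 without KO set 1 replicate 3 and 37 without KO set 2 replicate 4. The median of all probes moved to -0.87 with the first scaling and to -0.17 with quantile normalization, so differences are given relative to it.

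Leaving aside the 3 settings that cannot move them, relative differences kept their sign in 297 of 315 comparisons. These are not separate checks, since most leave out a single array and the deposited values follow quantile normalization. Pax5 base 751 turned to -0.63 with quantile normalization and with the deposited values, -0.33 with normexp, -0.089 with slide as a fixed block, -0.82 without the 4 dim KO arrays and -0.031 with array weights, and ran from -0.037 to 0.50 without 1 array. Ebf1 turned to -0.021 with quantile normalization and -0.011 with the deposited values. Foxo1 base 2308 was 0.20 with normexp and -1.67 to 0.83 without 1 array. Foxo1 base 4809 was 0.41 without the dim arrays, 0.078 with array weights and -0.88 to 0.46 without 1 array. Tcf3 base 1898 was 0.14 without the dim arrays, and base 2516 was 0.15 with array weights and -1.16 to 0.15 without 1 array. The cause was not tested.

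The count of probe pairs, 2, was 5 without the 4 dim KO arrays, 4 with normexp, 1 with slide as a fixed block, 0 with the replicate block and 1 to 34 without 1 array (34 without KO set 2 replicate 4). The Foxo1 pair turned to 0.52 with normexp and ran from -1.41 to 1.42 without 1 array. Without the dim arrays the Pax5 pair turned to -0.23 and the Tcf3 pair to 0.52. Ikzf1 base 827 minus 1726 ran from 3.20 to 6.28 under other settings.

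Equal replicate numbers share only a number: the paired deviations correlated at -0.22 to 0.19, and 2 of 14 arrays matched their own number best. The replicate block gave 8 called probes, and the Bach2 base 343 value relative to all probes was -3.48 with it. Slide 2, the slide of set 2 with both genotypes, gave 1.26 for Ebf1, -2.81 for Ikzf1 base 1726 and 2.03 for Pou2af1, relative to all probes. Signal over background limits the Bach2, Bcl6 and Foxo1 readings most.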
